A study of Mus musculus with 6 samples.

Results

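The DEAD and DEAH box RNA helicases are enzymes that use ATP to unwind RNA or to strip proteins from it, and their names come from the amino acids of a shared ATP-binding motif. Most steps in the life of an RNA use 1 or more of them. In the nucleolus they remodel the precursor of ribosomal RNA while both ribosomal subunits are built, in the nucleus they drive the spliceosome and mRNA export, and in the cytoplasm they act in translation, mRNA decay and the sensing of viral RNA. In skeletal muscle, where ribosome number helps to set the capacity for protein synthesis, several members are also known as coregulators of transcription. Members were taken by gene symbol, as every Ddx gene with a number and an optional a or b and every Dhx gene with a number, leaving out Ddx3y. This gave 48 genes (32 Ddx and 16 Dhx) of the 21212 probe sets on the array, each gene measured by 1 probe set. No measured value enters the rule, but the members were chosen with earlier results of these data known.

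The RNA came from gastrocnemius and plantaris muscles of male CDF1 mice that were 8 weeks old at inoculation. C26 mice carried C26 colon adenocarcinoma cells given in PBS with matrigel under the skin of both flanks, a mouse model of cancer cachexia, and control mice received PBS with matrigel alone. Muscles were taken after 25 days from 3 control and 4 C26 mice. RNA of 2 to 3 muscles was combined into each pool, and each pool was run on 1 Affymetrix Mouse Gene 1.0 ST array. The pools are control replicates 1, 2 and 3, and C26 replicates 1, 3 and 4. Pools of a group may share a mouse, so that the p-values measure the spread between pools. Values are RMA values on the log2 scale, in which a difference of 1 is a doubling, and levels of different genes are not compared. A gene was called higher or lower in C26 muscle where limma gave an adjusted p of at most 0.05 (Benjamini-Hochberg over all 21212 probe sets) and the change was at least 1.5-fold (0.58 on the log2 scale).

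The tissue was checked with marker genes. All 10 muscle fiber markers were far above the background of 3.82 (log2, the 95th percentile of 1255 olfactory and vomeronasal receptor probe sets), and their summed level was 15.5 to 15.6 in control and 15.4 to 15.5 in C26 pools. Of these, Mylpf was called lower. Markers of other cell types moved with the groups, though not every marker of a list did. Macrophage markers had a summed level of 9.56 to 9.72 in control and 10.3 in each C26 pool, with 5 of 9 called higher. Adgre1 and Csf1r of that list differed by only 0.00 and 0.02. Neutrophil markers had 6.31 to 6.41 in control and 7.73 to 8.02 in C26 pools, with 6 of 8 called higher. S100a8, Cxcr2, Retnlg and Mmp8 were below the background in control muscle, and Ly6g in both groups. Fibroblast and tendon markers had 12.6 to 12.8 in control and 11.6 to 11.8 in C26 pools, with 4 of 7 called lower. In that list Pdgfra went the other way, by 0.50 (limma adjusted p = 0.00135), and Dcn differed by 0.03. Of the endothelial markers 1 of 6, Kdr, was called lower. Of 6 lymphocyte and 7 epithelial markers limma called 0, with 2 and 3 lower at an unadjusted p under 0.05, and Cd3g, Cd4, Cd79a, Ms4a1, Epcam and Vil1 were below the background in both groups. Cd3g and Cd79a are the 2 lymphocyte markers just counted. The part of these shifts in the helicase results was not tested. In bulk muscle RNA, fewer cells of a type and less RNA per cell cannot be told apart.

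In C26 muscle, 10 of the 48 helicase genes (20.8%) were called higher and 0 were called lower. Over the whole array 5.94% of probe sets were called higher and 4.95% lower. Among the 14888 probe sets above the background in a group the share called higher was 8.3%, and 44 of the 48 helicase genes lay above it. The 10 genes were Ddx56, Ddx21, Ddx27, Ddx18, Ddx24, Ddx51 and Ddx10 of the nucleolus and ribosome biogenesis, Ddx20 and Dhx15 of splicing and its particles, and Dhx40, whose role is little described. Without the 1.5-fold minimum, 24 helicase genes passed the adjusted p of limma as higher and 0 as lower, against 14.3% and 15.8% of all probe sets, and 19.9% higher among those above the background. At an unadjusted p under 0.05, 5 helicase genes were lower (22% of all probe sets), and 0 were called lower by tests with equal or with unequal variances, each of which had 5 at that unadjusted p.

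The median log2 fold change of the 48 genes was 0.26, against -0.05 for all probe sets, and single genes ranged from -0.36 for Ddx25 to 1.57 for Ddx56. The difference was above 0 for 35 genes and below 0 for 13. Median centring, quantile normalization and cyclic loess put 38 or 39 genes above 0, and the sign of Dhx16, Ddx19b, Ddx55 and Ddx4, whose changes were near 0, depended on the scaling. The C26 pools differed little in this median, which was 0.24 above the control mean in replicate 1, 0.28 in replicate 3 and 0.25 in replicate 4. In 31 genes every C26 pool lay above every control pool (19.3% of all probe sets did so), and in 8 every C26 pool lay below (24.6%).

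**Figure D1:**
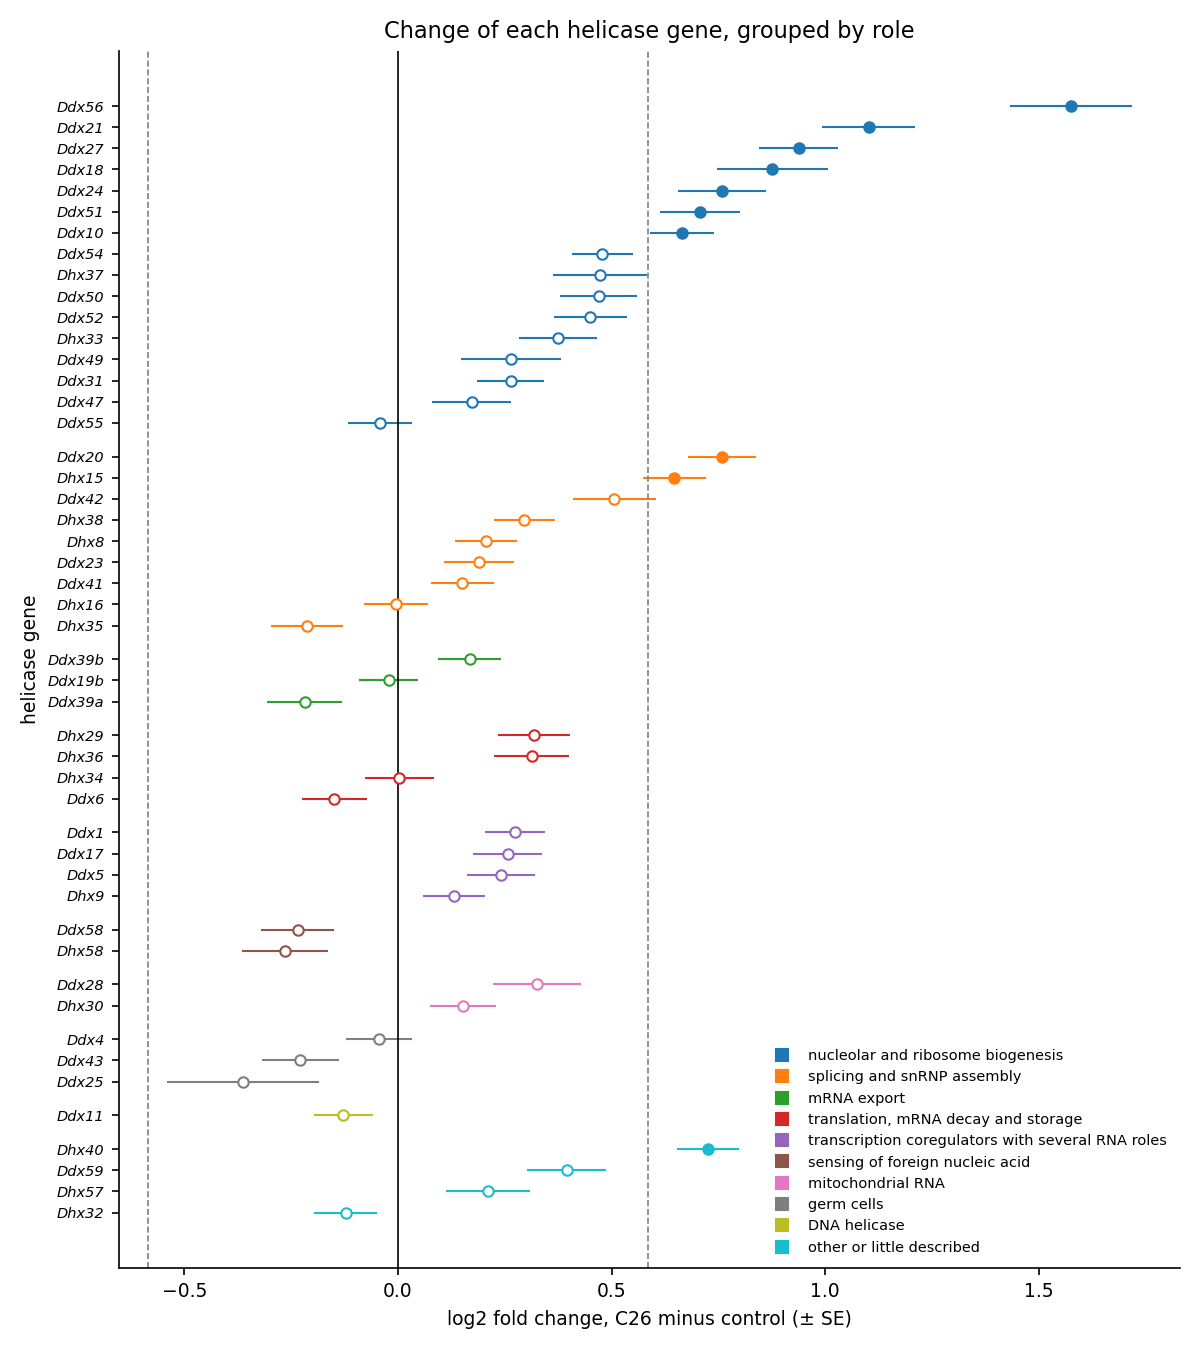
Log2 fold change (C26 minus control, ± SE from limma) of each of the 48 helicase genes, grouped by role; filled points were called and dashed lines mark 1.5-fold. The genes called higher lie mainly in the nucleolar group, 7 of 16, and no point reaches the lower line.

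Nucleolar and ribosome biogenesis helicases held 7 of the 10 calls. Of 16 measured, 7 (43.8%) were called higher, 13 passed the adjusted p without the fold minimum, and the median log2 fold change was 0.48. The 32 helicase genes of other roles had 3 called and a median of 0.16. With unequal variances 4 of the 16 were called, and the same 3 of the 32. Over the whole array 5.94% of probe sets were called higher, and 14.3% passed the adjusted p as higher without the fold minimum. The calls higher over all probe sets also fell with unequal variances, from 1261 to 760. The role lists were chosen with earlier results of these data known, and the difference between the 2 sets was not tested.

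Ddx56, a nucleolar helicase of large subunit assembly, had values of 7.10, 6.91 and 6.96 in control pools and 8.22, 8.68 and 8.79 in C26 pools. All C26 pools were more than 1 log2 unit above the highest control pool. Its mean rose from 6.99 ± 0.10 to 8.56 ± 0.30 (SD, n = 3). This is a rise of 1.57 (SE 0.14, limma adjusted p = 8.99e-05) or 2.98-fold, the largest among the 48.

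Ddx21, which acts in the transcription and processing of ribosomal RNA, measured 7.32, 7.33 and 7.11 in control and 8.15, 8.48 and 8.44 in C26 pools. The groups were well apart, with replicate 1 the lowest of the C26 pools. The log2 fold change was 1.10 (SE 0.11, limma adjusted p = 0.000147), or 2.15-fold. Ddx27, a helicase of ribosomal RNA end processing, had 6.07, 6.00 and 5.98 in control and 6.78, 7.04 and 7.04 in C26 pools. It too was lowest in C26 replicate 1 and did not overlap with control. It rose by 0.94 (SE 0.09, limma adjusted p = 0.000137).

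Ddx18, the counterpart of a yeast helicase needed for both ribosomal subunits, was more variable, with 8.26, 8.09 and 8.55 in control and 9.02, 9.19 and 9.33 in C26 pools. Control replicate 3 was the nearest to the C26 pools, without reaching them. The log2 fold change was 0.88 (SE 0.13, limma adjusted p = 0.00122). Ddx24, another nucleolar helicase, had 7.55, 7.47 and 7.44 in control and 8.08, 8.44 and 8.22 in C26 pools, a rise of 0.76 (SE 0.10, limma adjusted p = 0.00073). Here the C26 pools were spread more widely than the control pools. With unequal variances, Ddx56, Ddx18 and Ddx24 kept their direction and size but had adjusted p of 0.0548, 0.0595 and 0.0741.

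Ddx51, a helicase of large subunit ribosomal RNA maturation, measured 5.76, 5.86 and 6.03 in control and 6.50, 6.68 and 6.59 in C26 pools, and rose by 0.71 (SE 0.09, limma adjusted p = 0.000682). Ddx10, a helicase of small subunit assembly, measured 6.46, 6.36 and 6.42 in control and 7.01, 7.09 and 7.14 in C26 pools, and rose by 0.66 (SE 0.08, limma adjusted p = 0.000293). In both genes all C26 pools lay above all control pools, and replicate 1 was again the lowest C26 pool. Over the 10 called genes C26 replicate 1 was the lowest C26 pool in 9, Dhx15 being the exception, and it was the lowest in 13 of the 16 nucleolar genes.

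**Figure D2:**
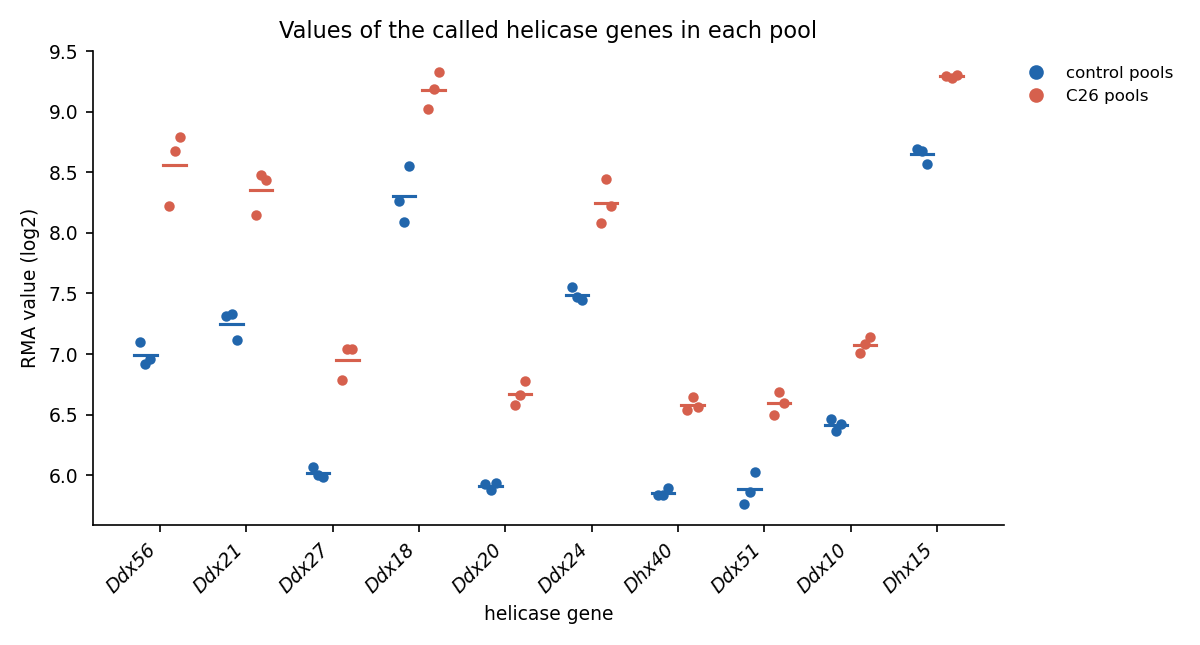
RMA value (log2) of the 10 helicase genes called higher in each of the 3 control and 3 C26 pools, with a line at each group mean. In every gene all C26 points lie above all control points, and Ddx56 is the most widely separated, by 1.57 between the means.

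Of the other nucleolar genes, 6 passed the adjusted p but not the fold minimum. Ddx54, the member not called with the next largest change after Ddx42, measured 7.14, 7.06 and 7.08 in control and 7.54, 7.59 and 7.59 in C26 pools, a log2 difference of 0.48 (SE 0.07, limma adjusted p = 0.00124). Its groups were tight and did not overlap. Dhx37 and Ddx50 differed by 0.47 each, Ddx52 by 0.45, Dhx33 by 0.38 and Ddx31 by 0.26. Ddx49 and Ddx47 differed by 0.26 and 0.17 with adjusted p of 0.13 and 0.207 from limma, and Ddx55 by -0.04, so that 3 of the 16 did not pass the adjusted p.

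**Figure D3:**
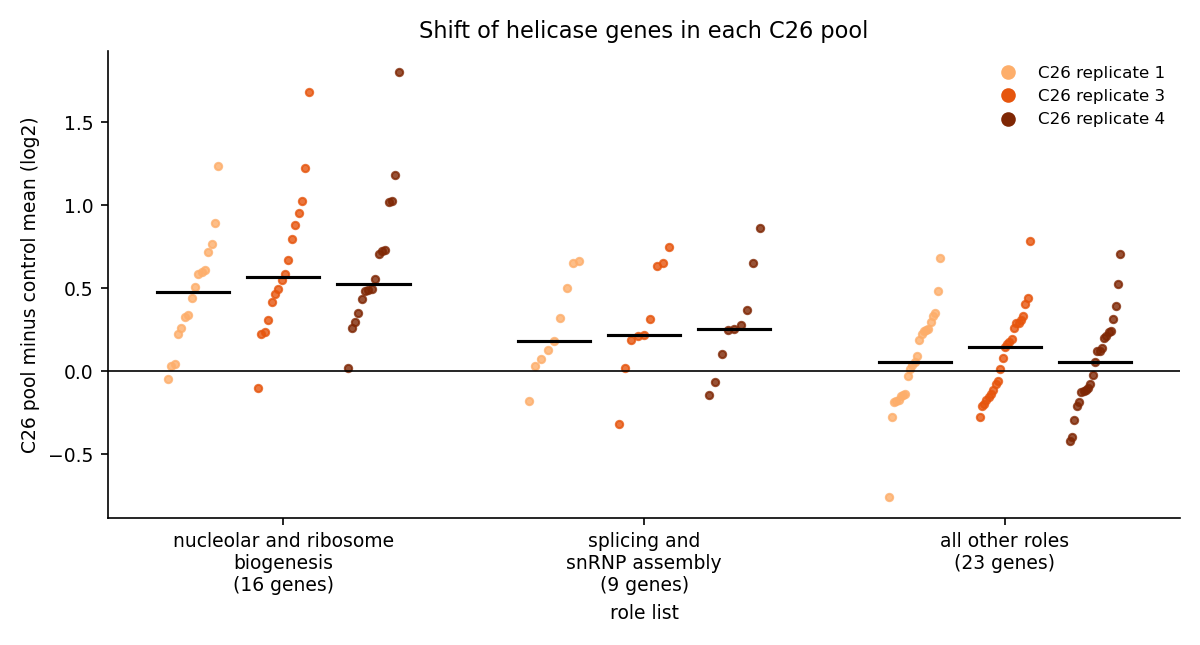
Difference of each helicase gene between a C26 pool and the control mean (log2), by C26 replicate, for nucleolar, splicing and all other helicases; black bars are medians. The nucleolar medians, 0.48, 0.57 and 0.53 in replicates 1, 3 and 4, lie above those of the splicing helicases, 0.18, 0.22 and 0.25, in each pool.

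Ddx21 and Ddx50 are close paralogues that lie next to each other on chromosome 10. The array value of Ddx21 minus that of Ddx50 changed by 0.63 between the groups, with all C26 pools above all control pools (exact permutation p = 0.1, two-sided, the smallest that 3 pools against 3 allow). For the paralogous coregulators Ddx5 and Ddx17 this change was -0.02 (exact permutation p = 0.8). For the export helicases Ddx39a and Ddx39b it was -0.39 (exact permutation p = 0.1), with the C26 pools below the control pools. The exact test cannot reach 0.05 with 3 pools against 3, and no other test of these differences was run.

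Sequences before the transcription start are printed for Ddx56, Ddx21 and Ddx27, which had the largest changes of the called genes, and for Ddx10 and Dhx40, the other called genes with a match to a motif searched. RefSeq windows of 250 bases before to 50 after the start (GRCm38.p6) were matched for 42 of the 48 genes by gene identifier, and for all 10 called. Some genes have several starts, and a gene is counted as holding a motif where any of its windows does. They lie at chr11:6267680-6267979 (minus strand) for Ddx56, chr10:62602249-62602548 (minus) for Ddx21, chr2:167015063-167015362 (plus) for Ddx27, chr9:53248063-53248362 (minus) for Ddx10 and chr11:86807611-86807910 (minus) for Dhx40. Each runs 5′ to 3′ on the strand of the gene. Capitals mark the E-box CACGTG, the ETS core CCGGAAG and the run GGAAGTGACG, each on either strand. The run is the longest that the windows of Ddx56, Ddx21 and Ddx27 share, and it can overlap with the ETS core.
Ddx56: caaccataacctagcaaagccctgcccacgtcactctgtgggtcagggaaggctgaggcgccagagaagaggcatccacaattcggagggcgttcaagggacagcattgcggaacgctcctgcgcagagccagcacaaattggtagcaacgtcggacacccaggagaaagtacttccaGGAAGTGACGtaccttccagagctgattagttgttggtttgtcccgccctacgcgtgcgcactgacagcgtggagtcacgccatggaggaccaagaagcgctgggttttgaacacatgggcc
Ddx21: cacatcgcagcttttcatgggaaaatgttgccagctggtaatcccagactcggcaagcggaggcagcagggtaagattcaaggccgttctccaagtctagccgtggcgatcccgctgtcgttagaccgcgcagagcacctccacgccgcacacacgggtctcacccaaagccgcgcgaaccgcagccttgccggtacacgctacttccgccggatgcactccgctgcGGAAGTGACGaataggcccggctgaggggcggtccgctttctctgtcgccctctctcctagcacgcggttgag
Ddx27: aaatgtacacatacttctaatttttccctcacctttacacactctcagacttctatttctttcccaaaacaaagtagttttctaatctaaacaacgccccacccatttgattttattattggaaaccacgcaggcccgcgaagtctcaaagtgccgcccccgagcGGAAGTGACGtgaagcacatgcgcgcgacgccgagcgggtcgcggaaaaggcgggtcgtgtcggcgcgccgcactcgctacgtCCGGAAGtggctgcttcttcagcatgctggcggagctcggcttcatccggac
Ddx10: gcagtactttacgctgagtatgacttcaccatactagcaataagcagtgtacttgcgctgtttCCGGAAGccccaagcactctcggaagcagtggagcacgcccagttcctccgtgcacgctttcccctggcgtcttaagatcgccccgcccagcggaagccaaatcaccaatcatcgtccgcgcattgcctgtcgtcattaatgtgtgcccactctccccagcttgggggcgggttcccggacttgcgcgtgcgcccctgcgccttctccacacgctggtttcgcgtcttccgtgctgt
Dhx40: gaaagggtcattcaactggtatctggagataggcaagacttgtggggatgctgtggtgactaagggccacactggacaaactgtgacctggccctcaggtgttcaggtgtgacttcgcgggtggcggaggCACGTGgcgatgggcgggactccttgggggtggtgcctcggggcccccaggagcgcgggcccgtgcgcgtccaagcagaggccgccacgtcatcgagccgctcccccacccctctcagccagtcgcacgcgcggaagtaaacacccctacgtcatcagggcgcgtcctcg

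The E-box, a core motif of bHLH factors such as Myc, was found in 7 of the 42 genes (16.7%) and in 1 of the 10 called genes, Dhx40. It was found in 8.09% of all 27025 genes with a window and in 11.4% of the 10688 whose probe sets lay above the background. Among the 7 are Ddx4 and Ddx25, which lay below the background in both groups, so that the 16.7% and the 11.4% cover unlike sets. The ETS core was in 19 of the 42 (45.2%), in 8 of 16 nucleolar genes and in 2 of the 10 called genes, Ddx27 and Ddx10, against 9.93% of all and 17.5% of genes above the background. The shared run GGAAGTGACG was in 5 of the 42 (11.9%), against 0.796% and 1.62%. The 3 genes it was read from account for 3 of these 5. The others, Ddx50 and Ddx55, are nucleolar as well, and Ddx55 had a change of -0.04. The ETS core and the run were picked after the windows had been read, so that their shares are descriptions, and no binding was measured here.

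Splicing and small nuclear ribonucleoprotein (snRNP) assembly helicases held 2 of 9 called higher, with a median of 0.21. Of all probe sets 5.94%, and of those above the background 8.3%, were called higher. With 9 genes, 2 calls are too few to set against these shares. Ddx20, the Gemin3 subunit of the SMN complex that assembles snRNPs, measured 5.93, 5.88 and 5.93 in control and 6.58, 6.66 and 6.77 in C26 pools. The control pools were nearly alike and lay below all C26 pools. It rose by 0.76 (SE 0.08, limma adjusted p = 0.000189). Dhx15, which takes spent spliceosomes apart and also serves in ribosome assembly, measured 8.70, 8.68 and 8.57 in control and 9.30, 9.28 and 9.30 in C26 pools. It had the smallest change of the called genes, 0.65 (SE 0.07, limma adjusted p = 0.000288), and under quantile normalization its change of 0.56 fell short of 1.5-fold.

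Ddx42, which takes part in early spliceosome assembly, had the largest change of the genes not called, with 6.58, 6.37 and 6.49 in control and 6.98, 7.13 and 6.85 in C26 pools. Its difference was 0.51 (SE 0.10, limma adjusted p = 0.00463), or 1.42-fold. The other splicing helicases had smaller differences. Dhx38 (Prp16) differed by 0.30 and passed the adjusted p alone, Dhx8 (Prp22) by 0.21, Ddx23 (Prp28) by 0.19, Ddx41 by 0.15 and Dhx16 (Prp2) by 0.00, and Dhx35 by -0.21.

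Dhx40 measured 5.84, 5.84 and 5.89 in control and 6.54, 6.64 and 6.56 in C26 pools. Both groups were tight and far apart, and the log2 fold change was 0.73 (SE 0.07, limma adjusted p = 0.000152). Of the other 3 genes grouped with it, Ddx59 differed by 0.39, Dhx57 by 0.21 and Dhx32 by -0.12, and none was called.

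No gene of the remaining roles was called by limma in either direction. Of their 19 genes 5 passed the adjusted p alone, all higher, and 4 were lower at an unadjusted p under 0.05. Of all probe sets 14.3% passed the adjusted p as higher with no fold minimum (19.9% of those above the background). At that unadjusted p 22% of all probe sets were lower, so that the 4 lower genes are near the share of the array. The tests with equal and with unequal variances also called 0 genes of these roles lower. Among transcription coregulators, Ddx1 measured 9.42, 9.38 and 9.35 in control and 9.63, 9.64 and 9.70 in C26 pools, a difference of 0.27 (SE 0.07, limma adjusted p = 0.0184). Ddx5, a coactivator of MyoD, measured 9.67, 9.65 and 9.66 in control and 9.96, 9.97 and 9.78 in C26 pools, a difference of 0.24 (SE 0.08, limma adjusted p = 0.0501). Ddx17, its paralogue, measured 8.03, 7.96 and 7.95 in control and 8.31, 8.27 and 8.12 in C26 pools, a difference of 0.26 (SE 0.08, limma adjusted p = 0.0418). In these 3 genes every C26 pool lay above every control pool, as in 19.3% of all probe sets, and each change was far under 1.5-fold. Dhx9, an RNA helicase with roles in transcription, differed by 0.13 (limma adjusted p = 0.224).

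Of the 4 helicases of translation, decay and storage, Dhx29 and Dhx36 passed the adjusted p as higher. Dhx29, which helps ribosomes to scan structured leaders, measured 6.92, 7.10 and 6.97 in control and 7.22, 7.33 and 7.39 in C26 pools, a difference of 0.32 (SE 0.08, limma adjusted p = 0.0209). Dhx36, which unwinds G-quadruplexes, differed by 0.31 and Dhx34, a factor of nonsense-mediated decay, by 0.00. Ddx6, a helicase of mRNA decapping and processing bodies, measured 9.53, 9.51 and 9.43 in control and 9.31, 9.41 and 9.31 in C26 pools. All C26 pools lay below control, as in 24.6% of all probe sets. The difference of 0.15 in the mean (SE 0.08, limma adjusted p = 0.182) did not pass the test.

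Among the export helicases Ddx39b differed by 0.17, Ddx19b by -0.02 and Ddx39a by -0.22, with adjusted p of 0.126, 0.851 and 0.0985 from limma. Ddx39a had 5.06, 5.05 and 4.83 in control and 4.70, 4.80 and 4.77 in C26 pools, and control replicate 3 was close to the C26 pools. Ddx28, a helicase of the mitochondrial ribosome, measured 4.05, 3.81 and 3.84 in control and 4.39, 4.20 and 4.11 in C26 pools, a difference of 0.33 (SE 0.10, limma adjusted p = 0.0421), close to the background level. Dhx30, which also acts on mitochondrial RNA, differed by 0.15.

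Ddx58 and Dhx58 encode RIG-I and LGP2, sensors of viral RNA that interferon induces. Ddx58 measured 5.33, 5.12 and 5.17 in control and 5.07, 4.93 and 4.92 in C26 pools, a difference of -0.23 (SE 0.09, limma adjusted p = 0.0737). Dhx58 lay below the background in all 6 pools, with 3.52, 3.63 and 3.77 in control and 3.47, 3.45 and 3.22 in C26 pools, and its difference was -0.26 (SE 0.10, limma adjusted p = 0.0831). In both genes every C26 pool was below every control pool, as in 24.6% of all probe sets, without passing the test. The DNA helicase Ddx11 differed by -0.13. The germ cell genes Ddx4, Ddx25 and Ddx43 were below the background in both groups, and the difference of Ddx25, -0.36 (SE 0.18, limma adjusted p = 0.17), was the largest on the lower side. It rested on C26 replicate 1, without which it was -0.16.

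**Figure D4:**
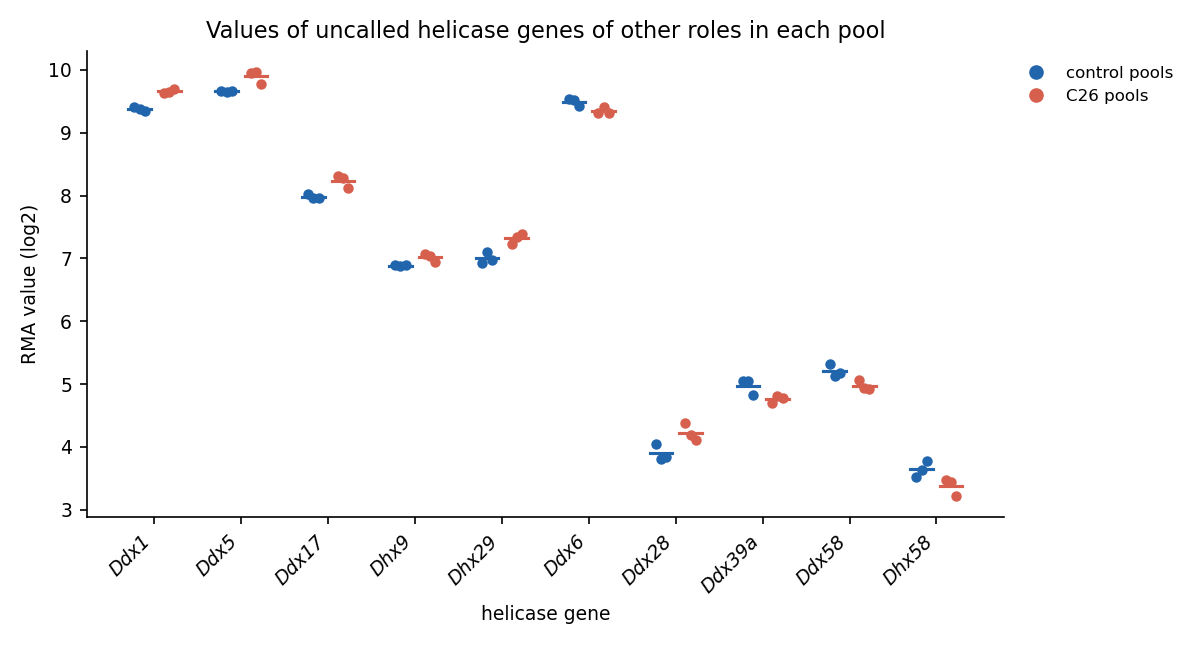
RMA value (log2) of 10 helicase genes that were not called, from roles outside the nucleolus and splicing, in the 3 control and 3 C26 pools, with a line at each group mean. The groups are close in each gene. C26 pools lie above control for Ddx1, Ddx5, Ddx17, Dhx9, Dhx29 and Ddx28, as in 19.3% of all probe sets. They lie below it for Ddx6, Ddx39a, Ddx58 and Dhx58, as in 24.6%. The genes of such roles whose groups overlap, Dhx57, Dhx34, Ddx19b, Ddx4 and Ddx25, are not shown.

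Ddx3x and 3 genes named only through the RefSeq table were outside the 48. Ddx3x, a helicase of translation initiation whose symbol the rule does not take, measured 9.67, 9.70 and 9.55 in control and 9.84, 10.11 and 10.00 in C26 pools, a difference of 0.34 (SE 0.09, limma adjusted p = 0.0238). It passed the adjusted p but not the fold minimum. The same held for Ddx46 of early splicing, with 0.43 (SE 0.09, limma adjusted p = 0.00796). The interferon-induced Ddx60 measured 3.73, 3.70 and 4.14 in control and 3.53, 3.39 and 3.51 in C26 pools, so that control replicate 3 alone was above the background. Its difference was -0.38 (SE 0.12, limma adjusted p = 0.0446), but it was -0.24 without control replicate 3, and the adjusted p reached 0.247 under an alternative. Ddx19a differed by 0.12. With the 3 RefSeq genes added, 10 of 51 helicase genes were called higher and 0 lower.

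Genes that share the work of these helicases were counted in 4 lists written from general knowledge. Among 20 genes listed as other RNA helicases 4 were called higher and 0 lower by limma (3 lower at an unadjusted p under 0.05). Their median was 0.16, where 5.94% of all probe sets were called higher. The list includes Hells, which is not an RNA helicase and was below the background in both groups. Eif4a1, the DEAD box subunit of the cap-binding complex eIF4F, measured 7.75, 7.16 and 7.37 in control and 8.10, 8.41 and 8.27 in C26 pools, and rose by 0.83 (SE 0.15, limma adjusted p = 0.00323). Its control pools were widely spread but did not reach the C26 pools. Snrnp200, the spliceosomal helicase Brr2, rose by 0.76 (SE 0.08, limma adjusted p = 0.000177). Eif4a2, the paralogue of Eif4a1, rose by 0.67, and Dqx1 by 0.60 from a control level below the background. Ifih1, which encodes the RIG-I-like sensor MDA5, differed by -0.23 (limma adjusted p = 0.07). Helz2 and Znfx1 of the same list went the other way, by 0.30 (limma adjusted p = 0.0298) and 0.26 (limma adjusted p = 0.0552). Of the 20 genes, 13 had a difference above 0 and 7 below.

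G-patch proteins bind DEAH helicases and switch them on. Of 17 measured, 4 were called higher and 0 lower, namely Rbm17 and Sugp1 with 0.66 each, Gpatch1 with 0.65 and Cmtr1, a cap methyltransferase that binds Dhx15, with 0.61. The 17 had a median of 0.21, where 5.94% of all probe sets, and 8.3% of those above the background, were called higher. Fewer G-patch genes were called with unequal variances or with the replicate number as a block. Of 18 MIF4G proteins and other cofactors of DEAD helicases 1, Eif4g3, was called higher and 0 lower (1 lower at an unadjusted p under 0.05), with a median of 0.23. This share is close to the 5.94% of all probe sets called higher. Eif4g3, a scaffold that binds eIF4A, measured 8.36, 8.29 and 8.37 in control and 9.20, 9.24 and 9.17 in C26 pools, and rose by 0.87 (SE 0.07, limma adjusted p = 5.81e-05). Of 9 partners of the RIG-I pathway 1, the kinase gene Tbk1, was called higher, by 0.88 (SE 0.08, limma adjusted p = 9.84e-05), and 0 lower, too few genes to set against that share. Trim25, which ubiquitinates RIG-I, differed by 0.47 and the adaptor gene Mavs by 0.13.

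**Figure D5:**
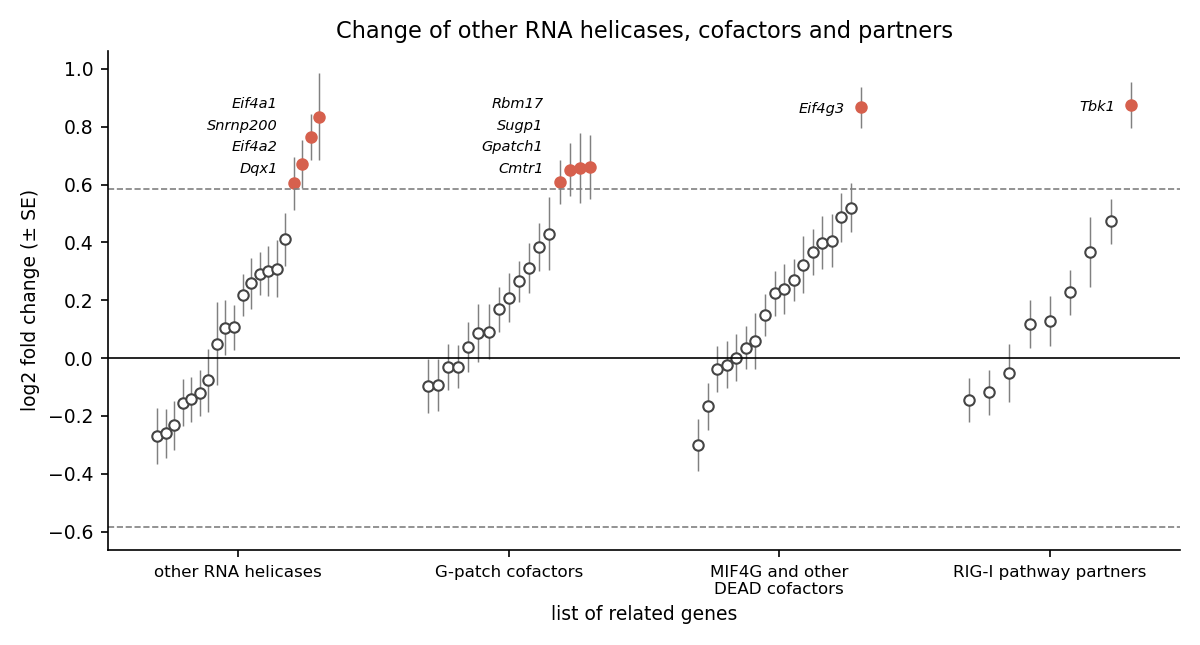
Log2 fold change (C26 minus control, ± SE from limma) of the measured genes in 4 related lists; filled points were called and are named, and dashed lines mark 1.5-fold. Above the upper line lie 4 of 20 genes listed as other RNA helicases and 4 of 17 G-patch genes. So do 1 of 18 cofactors and 1 of 9 RIG-I partners, and none lies below the lower line.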

How the data were processed

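The authors deposited log2 values, made from the array images by RMA in the GenePattern Expression File Creator with the Brainarray custom CDF, version 13. RMA corrects background, normalizes probe intensities by quantiles and gives 1 value per gene. The sources used here do not give the genome build. RNA integrity numbers were at least 8.0. Array medians were 4.93 to 5.02, and Pearson r across probe sets was 0.994 to 0.996 within and 0.976 to 0.981 between groups. With 3 arrays per group, their number limits the precision.

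Platform symbols named 18782 probe sets uniquely, 6 carried several symbols, 4 shared one and 2420 are unnamed here; all 21212 were tested. The groups were compared in R 4.3.3 by two-sided tests of limma 3.58.1, with lmFit and then eBayes, whose prior had 4.52 degrees of freedom. Summaries, exact permutation tests, motif searches and figures were made in Python 3.11.15 with SciPy 1.17.1. A list's summed level is the log2 of the sum of its unlogged values in a pool.

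The members, role lists and related lists were chosen with earlier results of these data known. The genes named in the text are the called ones, the member with the largest absolute change of each role, Ddx58, Dhx58, Ddx60, Ddx5, Ddx17, Ddx3x, Ddx6 and Dhx9, the 2 members on either side of the fold threshold, and the 2 called genes with the largest change of each related list. Other genes are named after their values were seen. Those among the 48 and the RefSeq genes complete these sets, and those of the marker and related lists are a selection. Alternatives were tests with equal and with unequal variances (the methods do not state which their parametric test assumed), limma settings, thresholds, scalings, a filter on dim probe sets, the replicate number as a block, RefSeq symbols for the members and leaving out each array. Whether same-numbered pools deviate together was checked. They did not, but only the numbers 1 and 3 occur in both groups, too few to decide whether a number ties pools. Scripts were tested on simulated data. Protein sequences were not analysed here.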

Additional observations from a re-analysis of the deposited data

How the results depend on the processing

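The count of helicase genes higher in C26 muscle was 10 under a test with equal variances, both other limma priors, the dim filter, median centring, cyclic loess and without any 1 array (lowest and highest 10), and each of these kept the same 10 genes. It was 7 with unequal variances (without Ddx56, Ddx18 and Ddx24), 9 under quantile normalization (without Dhx15), 24 with no fold minimum and 2 with a 2-fold minimum (Ddx56 and Ddx21). No helicase gene was called lower under any of these. The median change was 0.32 under median centring, 0.21 under quantile normalization and 0.24 to 0.28 without 1 array. Of the 26 genes taken by the naming rule among the helicases, with Ddx3x and Ddx60, none changed sign under these alternatives; the related genes were run only as counts. Dhx16, Ddx19b, Ddx55 and Ddx4 are outside those 26, and their signs changed with the scaling, Ddx55 from -0.04 to 0.02 under median centring.

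With unequal variances, counts of genes higher were 4 nucleolar helicases, 2 other RNA helicases, 2 G-patch genes and 760 of all probe sets, with 621 lower. With no fold minimum they were 13 nucleolar, 4 splicing, 2 little described, 1 mitochondrial, 2 coregulator and 2 translation helicases, 9 other RNA helicases, 8 G-patch genes, 8 MIF4G and other cofactors, 2 RIG-I partners and 3041 probe sets, and 1 other RNA helicase, 1 cofactor and 3344 probe sets were lower. With a 2-fold minimum they were 2 nucleolar and 0 splicing or little described helicases, 0 in each related list and 432 probe sets, with 307 lower. Quantile normalization left 1 splicing helicase. Without 1 array, 3 to 4 other RNA helicases, 3 to 4 G-patch genes and 1196 to 1391 probe sets were higher and 992 to 1155 lower. The cause of these shifts was not tested, apart from the thresholds themselves. Median centring called 1534 probe sets higher and 839 lower (64.6% of calls higher, against 54.6%).

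Same-numbered pools did not deviate together (correlation of deviations -0.06 for replicate 1 and -0.06 for replicate 3). Only these numbers occur in both groups, too few to decide whether a number ties pools, which the sample labels do not state. In the main results the numbers only name the pools. With the replicate number as a block, 11 helicase genes were higher, Ddx50 being added, and 2 G-patch genes. Control replicate 2 and C26 replicate 4 have no same-numbered pool in the other group. The block fit therefore compares only replicates 1 and 3 of each group. Genes near the background of 3.82, such as Ddx28 and Dhx58, are limited by signal.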
